A study of Mus musculus with 9 samples.

Results

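The regions described here are 1288 stretches of mouse chromatin that carried an H3K27ac peak in oligodendrocyte progenitor cells (OPCs) and in oligodendrocytes (OLs) of 2 cell lines, and that were also touched by a SOX6 peak in both states. They were found by merging the 4 deposited H3K27ac peak lists on chromosomes 1 to 19, keeping the 14591 of 48551 merged regions that all 4 lists touched, and then keeping those that overlapped a peak in each of the 3 SOX6 lists by at least 1 bp. Among the same 14591 constant regions, 4812 had SOX6 in both OPC lists and not in OL and are called regions losing SOX6, 5489 touched no SOX6 peak, and 3002 had another pattern. The members were thus selected on the presence of H3K27ac and SOX6 peaks, and their SOX6 values are given as a description with no test.

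Chromatin immunoprecipitation followed by sequencing was run on cells made in culture from 2 epiblast stem cell lines, EpiSC5 and 129O1, which the labels trace in that order to the strains 129SvEv and 129S1/SvImJ. OPCs grew with the mitogens bFGF and PDGFA, without SHH, and had been sorted for CD140a and NG2 before they were expanded. OLs were an intermediate, O1-positive stage, and both cell types were collected on a magnetic sorter for chromatin. The labels name no genetic change and no drug in any group. The mark was profiled in the 2 states of each line, whereas SOX6 in OL was profiled only for EpiSC5. The 2 lines are the replicates, each is a single culture-derived line, and the OL side of every SOX6 comparison rests on 1 library. P-values over the lists therefore measure only the spread between these cultures. In bulk chromatin, fewer cells that carry a mark and less of the mark per cell cannot be told apart.

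H3K27ac is an acetyl mark laid on the histones of active promoters and enhancers. SOX6 is an HMG-box transcription factor of the SoxD group, with its close relative SOX5, and has no activation domain of its own. In the oligodendrocyte lineage the SoxD factors are known for keeping progenitors from maturing too early, in opposition to SOX10, which drives myelin genes.

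On the autosomes the H3K27ac lists held 26967 to 33058 peaks, and SOX6 had 22320 peaks in 129O1 OPC, 15166 in EpiSC5 OPC and 3858 in OL. The OL SOX6 list stood apart by its length, and its median −log10 q was 10.6 against 19.2 and 20.0 in the OPC lists. Members held 37.8% of all OL SOX6 peaks, against 7.91% and 10.4% of the OPC peaks. The rule asks each of the 1288 members for a peak of every list. A shorter list therefore has a larger share by the rule, and the contrast says nothing further about SOX6. No read counts come with the lists, so the depth of a library is unknown and no counting error can be attached to a value. As a check of the labels, H3K27ac within 10 kb of 25 newly formed oligodendrocyte genes covered 224 and 160 kb in OPC and 717 and 628 kb in OL, and within 10 kb of 29 myelin genes 110 and 86.9 kb against 227 and 260 kb. The 30 OPC genes did not separate the states, with 483 and 385 kb in OPC and 469 and 398 kb in OL. Around 14 pluripotency genes 29.4 and 22.1 kb were covered in OPC and 23.7 and 18.1 kb in OL. Of other cell types, 12 microglia genes held 9.06 to 13.9 kb, with 5 of the 12 touched in each list, 15 neuron genes 29.2 to 63.3 kb, with 9 or 10 touched, and 14 astrocyte genes 48.8 to 96.0 kb, with 13 or 14 touched. Whether such cells contributed to a value below was not tested.

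The bases under OL SOX6 summits at gene starts are shown first, because the short words they hold are compared with those of other promoters below. Each run is 101 bases centred on the summit of the OL SOX6 peak, from the RefSeq promoter table of GRCm38.p6 and on the strand of the gene. Capitals mark the ETS word (ACTTCCG or its reverse complement), the GC box (GGGCGG or its reverse complement) and the SOX word (AACAAT or its reverse complement). The first set holds the 8 highest OL folds among the summits whose whole window lay in a promoter of that table. It comprises Zscan29, a zinc-finger gene (chr2:121171148-121171248, minus strand), Gtf2b, the general transcription factor TFIIB (chr3:142765079-142765179, plus), LOC117997403 in the region of Abhd17c (chr7:84152084-84152184, plus), Cfap57, a gene of cilia (chr4:118620763-118620863, minus), Slc29a3, a nucleoside transporter (chr10:60752813-60752913, minus), Wdr1, an actin-disassembly factor (chr5:38561662-38561762, minus), Trip12, a ubiquitin ligase (chr1:84839427-84839527, minus) and Poc5, a centriole protein (chr13:96388168-96388268, plus).
Zscan29: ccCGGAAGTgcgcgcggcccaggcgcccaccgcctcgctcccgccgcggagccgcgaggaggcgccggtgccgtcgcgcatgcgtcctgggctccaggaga
Gtf2b: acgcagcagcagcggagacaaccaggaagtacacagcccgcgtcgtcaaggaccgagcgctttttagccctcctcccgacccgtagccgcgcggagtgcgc
LOC117997403: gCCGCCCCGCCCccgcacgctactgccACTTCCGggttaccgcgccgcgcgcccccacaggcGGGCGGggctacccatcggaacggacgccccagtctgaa
Cfap57: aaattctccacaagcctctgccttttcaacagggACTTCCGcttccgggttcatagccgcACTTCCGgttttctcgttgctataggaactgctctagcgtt
Slc29a3: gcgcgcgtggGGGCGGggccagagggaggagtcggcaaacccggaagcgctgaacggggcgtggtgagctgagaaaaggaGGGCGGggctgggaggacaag
Wdr1: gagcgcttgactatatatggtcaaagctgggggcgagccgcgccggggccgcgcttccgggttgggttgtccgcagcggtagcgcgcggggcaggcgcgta
Trip12: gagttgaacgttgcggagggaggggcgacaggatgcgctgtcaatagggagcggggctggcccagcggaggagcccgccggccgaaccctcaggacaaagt
Poc5: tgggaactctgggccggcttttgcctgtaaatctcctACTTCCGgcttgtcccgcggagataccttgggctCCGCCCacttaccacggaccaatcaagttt

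The ETS word stood in 4 of these 8 windows, those of Zscan29, LOC117997403, Cfap57 and Poc5, and the SOX word stood in none. The authors' fold enrichment of the OL peak, a ratio of signal over background, ran from 17.1 at Zscan29 to 12.9 at Poc5. In OPC the same regions had lower highest folds, 6.89 and 4.52 at Zscan29 and 5.96 and 7.14 at Poc5 (129O1 and EpiSC5). The exception was Gtf2b, which had 18.7 in 129O1 OPC, 7.32 in EpiSC5 OPC and 16.3 in OL. These 8 windows were picked for a high OL fold, which by itself favours lower OPC values.

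The second set holds the windows at start sites of genes in the gene lists used below. These are Junb, an AP-1 factor (chr8:84978763-84978863, minus), Chn2, a GTPase-activating protein for Rac (chr6:54272615-54272715, plus), Sox6 itself (chr7:115824762-115824862, minus) and Itgb1, the integrin beta-1 chain (chr8:128685533-128685633, plus).
Junb: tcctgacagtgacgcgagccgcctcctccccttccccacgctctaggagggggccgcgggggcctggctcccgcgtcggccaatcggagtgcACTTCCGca
Chn2: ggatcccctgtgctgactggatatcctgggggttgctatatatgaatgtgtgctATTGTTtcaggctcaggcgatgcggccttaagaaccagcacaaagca
Sox6: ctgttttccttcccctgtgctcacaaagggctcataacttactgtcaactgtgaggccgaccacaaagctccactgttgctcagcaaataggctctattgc
Itgb1: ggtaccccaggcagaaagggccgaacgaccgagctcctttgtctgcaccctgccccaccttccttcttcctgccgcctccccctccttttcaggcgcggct

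Junb held the ETS word, Chn2 held the reverse complement of the SOX word, and the windows of Sox6 and Itgb1 held none of the 3. The OL fold was 7.14 at Junb, 7.06 at Chn2, 5.19 at Sox6 and 5.15 at Itgb1. Sox6 thus had SOX6 signal at an annotated start of its own gene in all 3 lists, with folds of 14.0 and 6.52 in OPC. This start lies inside the gene, which spans chr7:115470872-116040776, and not at an outer end of it.

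The members' promoters held the ETS word, the preferred core of ETS-family factors at gene starts, more often than any other set compared. Each promoter is 300 bases, 250 before to 50 after an annotated start. The word stood in 28.4% of the 1160 promoters of members, in 10.6% of 4584 promoters of constant regions without SOX6, in 8.38% of 1397 promoters of regions losing SOX6 and in 6.49% of all 31365 promoters of the table. Within the members it was more frequent in promoters that held an OL SOX6 summit. Of the 604 promoters that held such a summit, 46.7% had the word, and of the 556 that held none, 8.63%. No such split was made by OPC summit. Among members' summits that lay in a promoter, 45.7% in OL had the word in that promoter. In OPC it was 42.0% (129O1) and 43.8% (EpiSC5), so this was not particular to OL summits. Several promoters can start the same gene, so these counts are not independent. Promoters of regions losing SOX6 that held an EpiSC5 OPC summit had it in 11.9% of 511 cases.

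**Figure D1:**
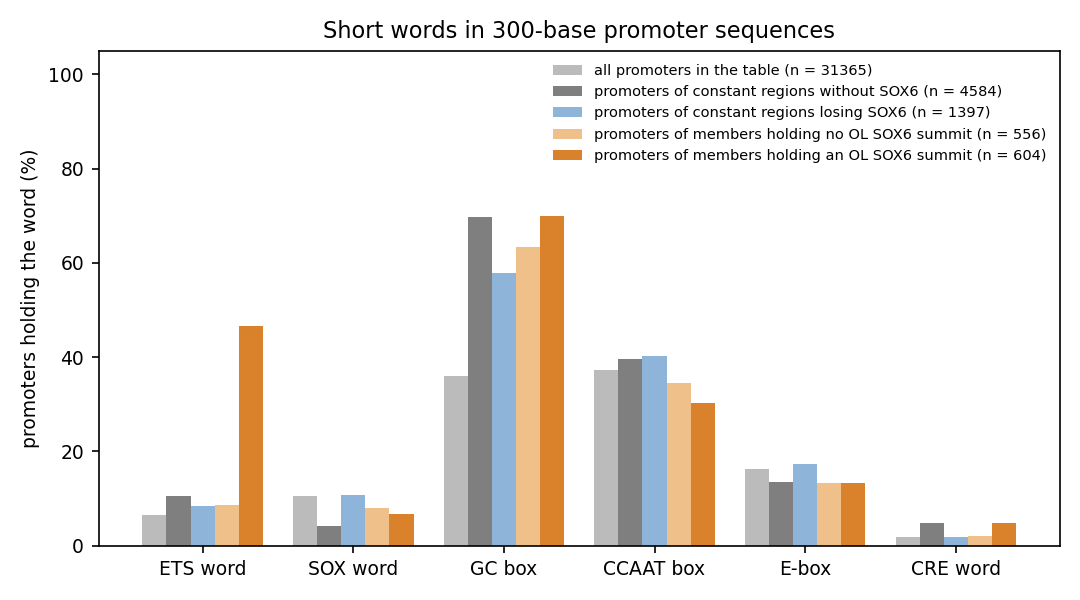
Share of 300-base promoters (percent, y axis) that held each of 6 words on either strand (x axis), for all promoters and for promoters of 4 sets of constant regions. The ETS bar of member promoters with an OL SOX6 summit reaches 46.7%, while the GC box bars of members and of regions without SOX6 lie close together.

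The SOX word, a core recognised by HMG-box SOX factors, was rarer in member promoters than in those of regions losing SOX6. It stood in 7.24% of member promoters, in 10.8% of promoters of regions losing SOX6, in 4.12% of promoters of constant regions without SOX6 and in 10.6% of all promoters. In the 101 bases around the summit it was found in 6 of 361 OL windows (1.66%), in 5.29% and 4.76% of the members' OPC windows of 129O1 and EpiSC5, and in 7.99% and 8.76% of the OPC windows of regions losing SOX6, against 3.78% of the middle 101 bases of all promoters. The ETS word stood in 37.4% of the OL windows, in 30.2% and 29.4% of the members' OPC windows, in 6.51% and 6.34% of OPC windows of regions losing SOX6 and in 1.87% of promoter middles. A high ETS share was thus seen at the members' summits in all 3 SOX6 libraries. These 3 shares are not independent, since members were chosen through their OL peaks too. The strongest OL summit lay a median of 31 bp from the nearest OPC summit, so the windows share many bases. The planned words also included the E-box CAGCTG, the TCF word CTTTGA, the NFI word TTGGCA and the TEAD word GGAATG, which stood in 1.94% to 3.60% of OL windows against 4.93% to 5.70% of promoter middles. The GC box stood in 38.8% and 19.2%. The ETS word and 3 other core promoter words were added after the data were seen. Of those, the CCAAT box (CCAAT) stood in 13.6% of OL windows against 18% of promoter middles, the Myc E-box (CACGTG) in 3.05% against 2.60% and the CRE word (TGACGTCA) in 2.49%, or 9 of 361 windows, against 0.685%. In the members' OPC windows the CRE word stood in 2.02% and 3.44%, and in those of regions losing SOX6 in 0.888% and 1.81% (129O1, then EpiSC5). Both strands were searched and no word contains another.

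The ETS word also lay close to the summit. Where a member promoter with an OL summit held it, the median distance from word to summit was 20 bases, and 57.5% lay within 25 bases. The median distances of the GC box and the SOX word were 46.5 and 112 bases. In OPC the distance to the ETS word was 21.5 bases in 129O1 and 29.0 in EpiSC5, and the SOX word was nearer than in OL, at 38.5 and 34.5 bases. Member promoters had a median GC content of 63.0% and a median of 24 CpG in 300 bases. Promoters of constant regions without SOX6 had the same values, those of regions losing SOX6 had 59.7% and 19, and all promoters had 53.0% and 7.

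Among members whose strongest OL summit lay in a promoter, the 222 with the ETS word had a median OL fold of 5.71 (interquartile range 4.68 to 7.78) and the 248 without it 5.00 (4.09 to 6.20). In OPC the medians were 4.59 and 4.72 in 129O1 and 3.58 and 3.57 in EpiSC5. The OL difference is smaller than the spread among members, and the OPC values nearly coincide. The 38 members with the SOX word had medians of 6.12, 4.70 and 5.54 in the 129O1 OPC, EpiSC5 OPC and OL lists. A word match describes the letters only. Cells without SOX6 were not analysed here, so the share of peaks that depends on SOX6 itself was not tested.

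Members fell into a class at gene starts and a class away from them, and their SOX6 values differed by class. Of the 1160 members whose status could be read from the promoter table, 752 (64.8%) contained an annotated start site and 408 did not. The share was 22.4% of 4459 regions losing SOX6, 68.4% of 4838 regions without SOX6 and 52.3% of 13123 constant regions. The members' own share depended on how the lists were cut, and why was not tested. With each list of a target reduced to the same number of highest-scoring peaks, 350 members remained and 27.4% of those had a start site. With the higher-scoring 50% of each SOX6 list there were 417 members and the share was 58.2%.

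The highest SOX6 peak of start-site members had a median fold of 4.95 in 129O1 OPC, 3.73 in EpiSC5 OPC and 5.21 in OL, with interquartile ranges of 3.79 to 6.49, 3.0 to 4.92 and 4.26 to 6.62. Ranked within its own list, the median start-site member stood at percentile 46.6, 22.2 and 53.6, near the middle of the 129O1 OPC and OL lists and low in that of EpiSC5 OPC. Members away from start sites had medians of 10.3, 8.47 and 5.08 and stood at percentile 88.6, 83.8 and 49.8. In OPC the latter therefore belonged to the higher peaks of the list, while in OL both classes lay near its middle. Regions losing SOX6 had OPC medians of 5.13 and 4.13 at start sites and 7.52 and 5.98 elsewhere. Folds come from separately scaled libraries, and ranks from lists of different length show no change between them.

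**Figure D2:**
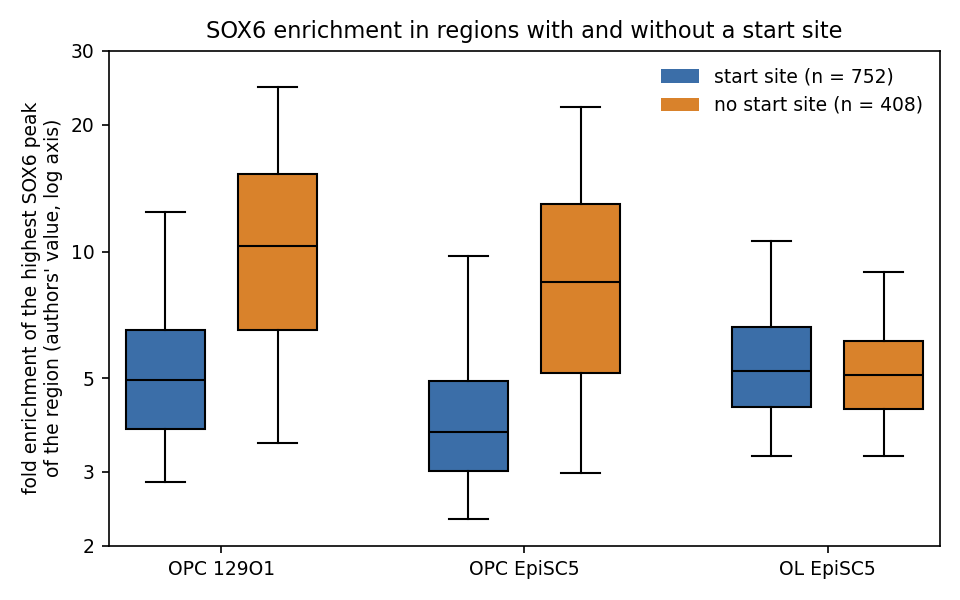
Authors' fold enrichment of the highest SOX6 peak of each member (y axis, log scale) in the 3 SOX6 lists (x axis), for members with and without a start site. Boxes span the quartiles with the median as a line, and whiskers run from the 5th to the 95th percentile. In both OPC lists the boxes of members away from start sites lie higher, and in OL the medians are 5.21 and 5.08.

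Kmt2a, a histone H3K4 methyltransferase, had the highest OL fold of all members, 21.0, beside 8.82 and 7.65 in OPC of 129O1 and EpiSC5 (chr9:44878675-44883229). Rab2a, a small GTPase of vesicle transport, had 17.9 against 7.42 and 4.03. Zscan29 with Tubgcp4, a gamma-tubulin complex component, Eapp, Gtf2b, Abhd17c, Fam172a and Pramel12 followed at 15.6 to 17.1. At each of these 8 except Gtf2b the OL value was the highest of the 3 lists. They were picked for their OL fold, which by itself favours that order. Over all members the medians were 5.75 in 129O1 OPC, 4.33 in EpiSC5 OPC and 5.19 in OL. Each of the 8 regions was touched by 1 peak per list, except Eapp with 2 in OL.

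The SOX6 peaks of both states lay on the same spot in most members, although the rule asked only that they touch the same region. The OL peak overlapped OPC peaks of both lines in 1150 members (89.3%), a peak of at least 1 line in 1213 (94.2%) and none in 75. The rule already placed OPC peaks of both lines in each region, of a median width of 2682 bp. No share over all OL SOX6 peaks was computed, so these counts are a description of the members only. The median distance from the summit of the strongest OL peak to the nearest OPC summit was 31 bp, with quartiles of 11 and 83 bp. It was within 100 bp in 78.6% of members and over 1 kb in 47. At start-site members the OL summit lay a median of 81 bp from the annotated start.

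Summits over 1 kb apart were found at several genes named here. In a region of Tns3, a tensin that links integrins to actin, the strongest OL summit lay 14598 bp from the nearest OPC summit (chr11:8631789-8654394), while the weaker of its 2 OL peaks overlapped the OPC peaks. In a second Tns3 region (chr11:8455991-8462508) the distance was 4883 bp. At Mical3, an actin-acting monooxygenase, the distance was 10468 bp, at Aebp2, a Polycomb cofactor, 6109 bp, and in the region of Lims2 and Gpr17, a receptor of differentiating OPCs, 5541 bp. At Mbp, the gene of myelin basic protein, it was 4639 bp.

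SOX6-covered length was shorter in OL for most members. The median was 470 bp in 129O1 OPC, 364 bp in EpiSC5 OPC and 264 bp in OL, and 335, 209 and 122 members held more than 1 peak. In 877 members the OL length exceeded neither OPC length, and in 178 (13.8%) it exceeded both. That share was 16.8% at start sites and 5.39% elsewhere. Median peak length was also shorter in the OL list as a whole, at 245 bp against 309 bp in both OPC lists.

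The longest OL coverage of any member lay over Malat1, a nuclear long non-coding RNA (chr19:5793737-5807245). SOX6 covered 1255 and 947 bp of the region in the OPC lists (129O1, then EpiSC5) and 3334 bp in OL, in 4, 3 and 8 peaks. Qk encodes quaking, an RNA-binding protein of myelin transcripts, and 3 members lay at it. A region 16903 bp from the gene (chr17:10187331-10189568) had 298, 244 and 2238 bp, a region inside it (chr17:10268517-10271774) had 496, 365 and 1401 bp, and the region over its start (chr17:10298193-10324283) had 631, 303 and 1558 bp. In each of the 3 the OL length was over both OPC lengths. Malat1, these regions and those of the next paragraph were picked for long OL coverage, which by itself favours OL. Over all members the OL length exceeded both OPC lengths in 13.8%.

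Arid1b, a subunit of the BAF chromatin remodeller, had 494 and 250 bp in OPC and 1575 bp in OL (chr17:4993390-4999025). Ppp1r16b, a phosphatase regulator, had 1115, 716 and 1690 bp. A region over the end of Polr2f, an RNA polymerase II subunit (chr15:79150643-79154819), had 846, 767 and 1668 bp. It lay 93 bp from the nearer edge of Sox10. Its strongest OL summit was 11584 bp from the nearest annotated start, so that edge is not the annotated start of Sox10. Sox10 is the factor that drives myelin genes. At Hes5, a Notch effector of progenitors, in a region shared with Pank4, the values were 4913, 873 and 2724 bp, so the 2 OPC lists lay on either side of OL. A region on chromosome 1 with no protein-coding gene within 50 kb (chr1:35106973-35130204) had 3731, 3359 and 1704 bp, less in OL than in either OPC list.

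**Figure D3:**
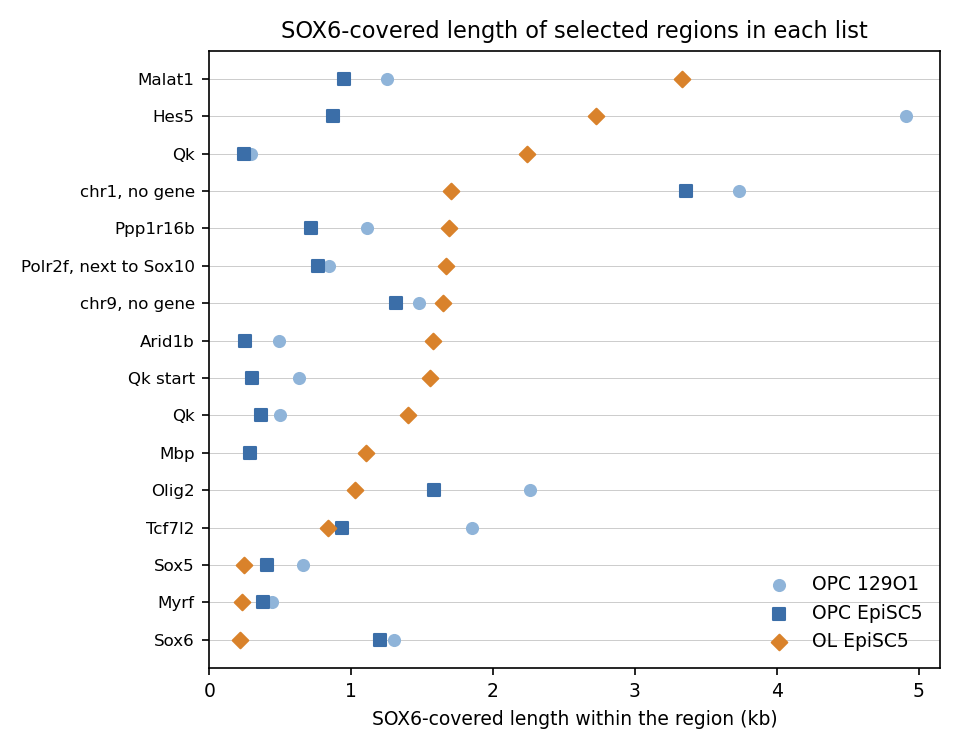
SOX6-covered length in kb (x axis) of the 10 members with the longest OL coverage and of 6 further regions at named genes (y axis), with 1 point per SOX6 list. At Malat1, Arid1b, Mbp and the 3 Qk regions the OL point lies to the right of both OPC points, and at Sox6, Sox5, Myrf, Olig2 and Tcf7l2 to the left.

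Counted over genes with 10 kb added at each side, 1692 of 20661 protein-coding genes (8.19%) held a member, or 14.6% of the 11599 that held any constant region. Most, 1598, held 1 and 88 held 2. Frmd4a, a FERM-domain scaffold, held 6 in 596.4 kb, Tex14, a protein of germ-cell bridges, 5, the matrix protein gene Tnr 4, and Fyn, Tns3 and Vti1a 3 each. In the body alone the count was 1267, and with 50 kb it was 3237. Gene length is not equal between lists, and longer genes have more room for a member.

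Of 25 genes of newly formed oligodendrocytes, 14 held a member, which is 66.7% of the 21 with a constant region against 14.6% for all protein-coding genes. They were Bcas1, Tcf7l2, Itpr2, Fyn, Tns3, Nfasc, Sirt2, Chn2, Frmd4a, Mpzl1, Gpr17, Kif19a, Lims2 and Cyfip2. Bcas1, a marker of cells beginning to myelinate, had a region with 1279 and 980 bp of SOX6 in OPC and 777 bp in OL (chr2:170400588-170408926), at folds of 9.88, 7.80 and 8.13. Tcf7l2, a Wnt effector needed for differentiation, had 1853, 938 and 839 bp over its start, at folds of 27.9, 21.3 and 8.30. The Bcas1 fold was nearly level across the 3 lists and that of Tcf7l2 lay lower in OL. Of the same list, 10 genes held a region losing SOX6, 47.6% of those with a constant region, where the share over all protein-coding genes was 30.7%.

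Of 30 OPC genes, 10 held a member, 34.5% of the 29 with a constant region, and 24 (82.8%, against 30.7% of all genes) held a region losing SOX6. The 10 were Gpr17, Luzp2, Tnr, Bcan, Sox5, Sox6, Nfia, Hes5, Xylt1 and Smoc1. Pdgfra and Cspg4, the genes of the 2 antigens used to sort OPCs, held no member. Luzp2 had 591, 491 and 374 bp of SOX6 at its start, Nfia, a nuclear factor of glial specification, had 1302, 640 and 356 bp, and Smoc1, a secreted matrix protein, had 951, 874 and 275 bp. In all 3 the length was greatest in 129O1 OPC and least in OL.

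Of 29 myelin genes on the autosomes, 8 held a member: Mbp, Cnp, Ugt8a, Fa2h, Gal3st1, Myrf, Qk and Gamt. That is 38.1% of the 21 with a constant region, and 15 of the 21 (71.4%, against 30.7% of all genes) held a region losing SOX6. Mbp had 282 and 284 bp of SOX6 in 1 OPC peak each and 1102 bp in 4 OL peaks, at folds of 3.78, 4.88 and 7.72 (chr18:82547617-82565689). Cnp, the gene of a myelin phosphodiesterase, had 1144, 1003 and 1171 bp at folds of 18.2, 12 and 7.44. Fa2h, which hydroxylates myelin fatty acids, had 618, 622 and 212 bp. OL coverage was thus the longest of the 3 lists at Mbp, about level at Cnp and the shortest at Fa2h.

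Of 20 lineage transcription factors, 7 held a member, 41.2% of the 17 with a constant region: Olig2, Sox10, Nkx2-2, Myrf, Sox6, Sox5 and Tcf7l2. A region losing SOX6 was held by 12 of the 17 (70.6%, against 30.7% of all genes). Olig2, which specifies the lineage, had 2261, 1583 and 1027 bp of SOX6 in 6, 4 and 3 peaks (chr16:91221160-91234826). Nkx2-2, a homeodomain repressor of the lineage, had 2387, 1225 and 442 bp at folds of 34.6, 32.1 and 7.05. Myrf, the myelin regulatory factor, had 445, 378 and 228 bp. At Olig2, Nkx2-2 and Myrf the OL length was below both OPC lengths, and in the region next to Sox10 it was above both.

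Among 17 SOX family genes on the autosomes, Sox2, Sox5, Sox6, Sox10 and Sox21 held a member, 45.5% of the 11 with a constant region. A region losing SOX6 was held by 6 of the 11 (54.5%). The highest OPC folds of any member lay at Sox21, at 46.9 in 129O1 and 43.4 in EpiSC5, against 7.37 in OL, with 1144, 849 and 824 bp covered. Sox2, a factor of neural progenitors and pluripotent cells, had 2871, 1287 and 203 bp in a region of 20906 bp. Sox6 had 1305, 1200 and 218 bp at an annotated start inside the gene, and Sox5 had 658, 409 and 248 bp inside its body. Zfp536, Sox13, Sox8 and Olig1 held none within 10 kb. At Sox21, Sox2, Sox6 and Sox5 the OL length was below both OPC lengths. In the region next to Sox10, with 846, 767 and 1668 bp, it was above both.

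Of 18 MAPK feedback genes, Spry2, Spred1, Etv5 and Junb held a member, 25% of the 16 with a constant region, each over the gene's start. A region losing SOX6 was held by 10 of the 16 (62.5%). Spred1, an inhibitor of Ras signalling, had 794, 510 and 986 bp of SOX6, and Spry2, of like function, 770, 514 and 202 bp. Of 24 cytoskeleton and adhesion genes 10 held a member, 43.5% of the 23 with a constant region: Fyn, Tns3, Actb, Actg1, Rhob, Rac1, Cdc42, Arhgef10, Septin7 and Itgb1. The share with a region losing SOX6 was also 43.5%. Of 12 housekeeping genes 3 held a member, 27.3% of the 11 with a constant region, Actb and Ywhaz among them. A region losing SOX6 was held by 2 of the 11 (18.2%). Tubb3 of 15 neuron genes and Sox2 of 14 pluripotency genes also held a member, where 5 and 4 had a constant region. No gene of the cell cycle list (20 genes, 12 with a constant region), the cholesterol synthesis list (20 autosomal genes, all with a constant region), the astrocyte list (14 genes, 13 with one) or the microglia list (12 genes, 4 with one) held a member within 10 kb. With 50 kb at each side 5 cell cycle, 3 cholesterol, 1 astrocyte and 1 microglia gene did.

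H3K27ac breadth, the length of a region covered by H3K27ac peaks, comes from other libraries than SOX6 but is not independent of the rule, since a region merged to a greater width, also by OL peaks alone, has more room for a SOX6 peak. Shares and ratios of breadth between members and other regions are therefore a description, and how far width set them was not tested. Member regions had a median width of 2682 bp (386 to 33773 bp), against 2388 bp in regions losing SOX6 and 1825 bp in regions without SOX6. Their median H3K27ac breadth in the lists of 129O1 and EpiSC5 was 2.21 and 1.89 kb for OPC, and 2.19 and 1.95 kb for OL. Relative to regions losing SOX6 the log2 ratio of medians was 0.17 and 0.18 in OPC and 0.31 and 0.36 in OL. Both OL values lay above both OPC values.

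After scaling to equal covered length per list, limma called 79 members wider in OL and 6 narrower (adjusted p below 0.05, both lines changing alike). The 79 are 6.13% of the members, where 2.33% of all constant regions were called wider, and the 6 are 0.466%, where 1.34% of all were called narrower. At an unadjusted p under 0.05 there were 503 of 1288 members, 193 wider and 310 narrower. Over all constant regions 5435 of 14591 passed that threshold, so the members' count is read only beside it. The median change was −0.32 on the log2 scale for members and −0.43 for all constant regions. Changes and calls here are against 0 after scaling to covered length. With each list centred on the median of all constant regions the members stood at 0.04, and limma called 50 of them wider and 0 narrower (299 and 97 at an unadjusted p under 0.05). Both lines moved by 1 or more on the log2 scale in 103 members upward (8.0%, background 4.14%) and in 46 downward (3.57%, background 7.0%), and no member changed by that much in opposite directions.

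More of the wider calls lay away from gene starts than at them. Of the 408 members without a start site, 57 (14.0%) were wider and 4 narrower, with a median change of 0.12. Among all 6266 constant regions without a start site, 3.80% were wider, with a median of −0.23. Of the 752 start-site members 21 (2.79%) were wider and 1 narrower, with a median of −0.39, against 1.17% and −0.50 for all 6857 constant regions with a start site. The members called had adjusted p from 0.0396 to 0.0494 in limma, all close to the threshold. No member was called without scaling (smallest adjusted p = 0.0607, limma, with 237 wider and 192 narrower at an unadjusted p under 0.05). No other constant region was called there either, and 4584 of all 14591 passed the unadjusted threshold. The calls were lost without either OPC list and their counts moved without either OL list. Such fits leave 1 list in a state, so only changes are given. Without OL of 129O1 the median change was −0.29 for members and −0.44 for all constant regions, and without OL of EpiSC5 −0.32 and −0.37. Without the cell line in the model 112 members were wider and 48 narrower, against 580 and 791 of all 14591 constant regions. With each list cut to its higher-scoring 50% the counts were 76 and 93 of 991 members, against 324 and 944 of 7643 regions. A pseudocount of 1 kb gave 152 and 101 members, against 945 and 1736 of 14591 regions. Of the 25 called members named here and plotted, 6 kept their call with centred lists. They were Trit1, Bcar1, the region over the annotated start inside Nfasc, 1 of 3 at Tnr and both at Frmd4a. The other 19 kept their direction at adjusted p of 0.0502 to 0.103 in limma. The count of wider members among the calls thus exceeded that of narrower ones in some of these settings and not in others. The order over all constant regions also changed with the setting, so the members' counts are read only beside that background.

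**Figure D4:**
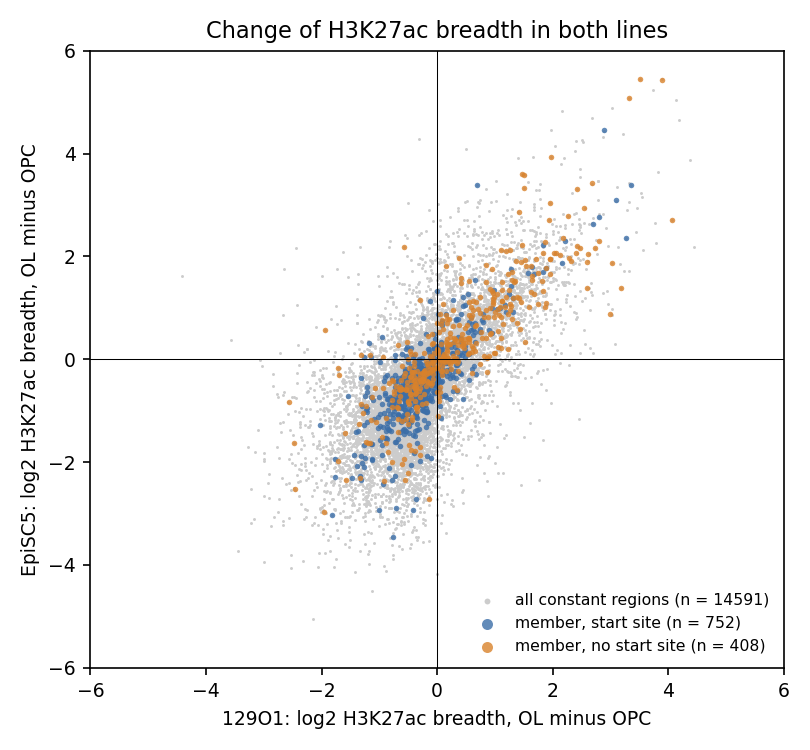
Change of H3K27ac breadth from OPC to OL (log2, after scaling) in 129O1 (x axis) and EpiSC5 (y axis) for all 14591 constant regions in grey and for members with (blue) and without (orange) a start site. Orange points reach past 5 in EpiSC5 in the upper right, where both lines lie above 0.

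The largest calls lay at Tns3, Tnr and Nfasc. At Tns3 (chr11:8631789-8654394) H3K27ac covered 1.44 and 0.403 kb in OPC (129O1, then EpiSC5) and 22.6 and 20.7 kb in OL, a change of 4.67 ± 0.40 (limma SE, n = 2 lines, adjusted p = 0.0396). Tnr, the gene of the matrix glycoprotein tenascin R, had 3 called regions. In the first (chr1:159579521-159598424) breadth was 1.57 and 0.313 kb in OPC and 18.9 and 16.3 kb in OL, a change of 4.49 ± 0.50 (adjusted p = 0.0407, limma). Nfasc, an adhesion molecule of axon contacts, held 2. The region over an annotated start inside the gene (chr1:132701149-132713164) went from 1.27 and 0.876 kb to 11.5 and 8.79 kb, a change of 3.09. Its neighbour (chr1:132715664-132742772) reached past an outer end of the gene and held no start of the promoter table. That neighbour went from 2.55 and 0.624 kb to 27.1 and 24.9 kb, a change of 4.21. In all of these the 2 OL values lay far above the 2 OPC values. SOX6 covered 1022, 760 and 228 bp of the first Tnr region and 562, 427 and 755 bp of the larger Nfasc region, so its length was below both OPC values in the former and above them in the latter.

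Members at myelin genes were called as well. Mbp breadth was 3.85 and 3.17 kb in OPC and 15.3 and 17.9 kb in OL, a change of 2.08 ± 0.19 (adjusted p = 0.0396, limma). Myrf rose from 1.45 and 0.99 kb to 5.89 and 7.66 kb, by 2.33 ± 0.24, and Cnp from 4.33 and 3.53 kb to 11.1 and 11.2 kb, by 1.35 ± 0.16. A region outside the body of Ugt8a but within 10 kb of it rose from 1.82 and 1.68 kb to 8.43 and 8.08 kb. Ugt8a makes the galactolipids of myelin. Bcar1, an adaptor of integrin signalling, went from 3.93 and 3.63 kb to 26.8 and 26.4 kb, and the region of Sirt2, a deacetylase abundant in myelin, from 6.81 and 4.07 kb to 25.7 and 22.4 kb. Fa2h, at 2.14 and 2.48 kb against 6.53 and 3.73 kb, was not called.

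Further wider members lay at genes outside the lists. Uhrf1bp1 had 0.294 and 0.442 kb against 5.17 and 3.42 kb, and Mical3 had 3.83 and 3.11 kb against 11.8 and 13.0 kb. Trit1, a tRNA-modifying enzyme, had 5.12 and 5.01 kb against 18.9 and 17.0 kb, and it also held 5 OL SOX6 peaks beside 3 and 4 in OPC. A region on chromosome 9 with no protein-coding gene within 50 kb (chr9:122614076-122628001) had 2.37 and 1.12 kb against 13.4 and 13.1 kb, with 1476, 1316 and 1644 bp of SOX6. At each of these both OL breadths exceeded both OPC breadths.

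The widest member, 33773 bp over Soga1 and Tldc2 (chr2:157046131-157079903), had 10.8 and 7.86 kb in OPC and 33.7 and 29.3 kb in OL and was not called (1.61, adjusted p = 0.0635, limma). The next, 30828 bp over the non-coding gene C130071C03Rik and the microRNA gene Mir9-2 (chr13:83715126-83745953), had 30.8 and 26.0 kb against 28.3 and 21.3 kb, with 13 and 7 SOX6 peaks in OPC and 2 in OL. Map4k4, a kinase of cytoskeletal signalling, followed with 29757 bp, and 19.6 and 19 kb against 26.3 and 28.6 kb. OL breadth was thus above OPC breadth at Soga1 and Map4k4 and, within each line, below it at Mir9-2.

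Further wider members among the newly formed oligodendrocyte genes were Chn2 (1.44 and 1.30 kb against 10.5 and 10.5 kb), Mpzl1 (4.34 and 2.74 kb against 16.7 and 15.7 kb) and Kif19a, a kinesin (1.24 and 1.03 kb against 5.92 and 6.24 kb). Frmd4a was uneven along its length. Of its 6 members 2 were called wider, by 1.71 and 1.16, and the 4 not called stood at 2.53, 0.37, 0.39 and −1.36, the last with 1.47 and 1.42 kb in OPC and 1.09 and 0.359 kb in OL. Tcf7l2 (1.00, adjusted p = 0.0734) and Bcas1 (0.32, adjusted p = 0.200) were not called by limma. In the Fyn gene 3 members stood at 0.56, 0.59 and 0.26, none of them called.

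Called narrower were 6 members, and with centred lists limma called none of them (adjusted p from 0.0537 at She to 0.103 at Farp1). She, an SH2-domain adaptor, fell by 2.50 ± 0.28 (adjusted p = 0.0419, limma), from 3.14 and 1.79 kb to 0.601 and 0.366 kb. Nmnat2, an enzyme of NAD synthesis, had 5.76 and 5.59 kb in OPC and 1.57 and 0.844 kb in OL, and the region shared by Hes7 and Aloxe3 3.80 and 2.43 kb against 1.27 and 0.579 kb. Xylt1, which starts proteoglycan chains, had 5.06 and 3.62 kb against 1.76 and 1.57 kb, Farp1, a FERM-domain exchange factor, 4.37 and 3.01 kb against 1.88 and 1.72 kb, and Spred1 7.59 and 7.12 kb against 3.77 and 3.74 kb. In each of the 6 both OL values lay below both OPC values.

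**Figure D5:**
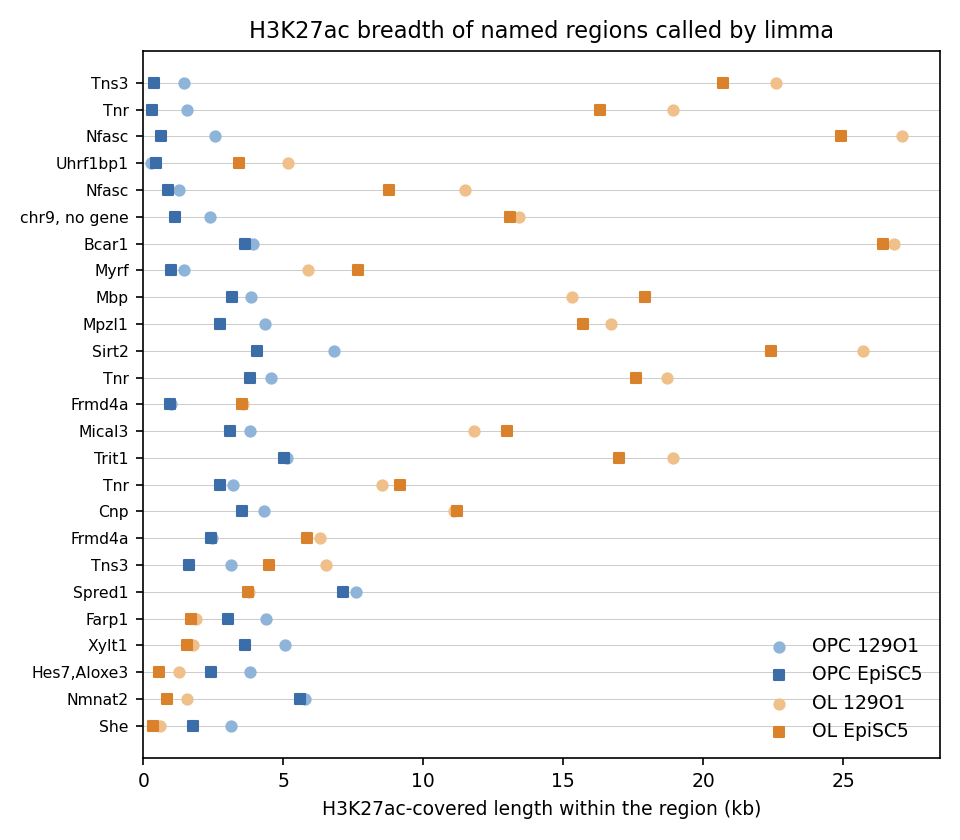
H3K27ac-covered length in kb (x axis) of 25 members called by limma (y axis, ordered by change), with 1 point per list. In the 19 wider regions both OL points lie to the right of both OPC points, and in the 6 narrower regions to the left.

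At the SOX genes, Olig2 and Nkx2-2 no member was called. Breadth at the annotated start inside Sox6 was 4.92 and 4.28 kb in OPC and 4.14 and 3.57 kb in OL. At Olig2 it was 13.5 and 11.2 kb against 13.4 and 11.6 kb. Nkx2-2 had 8.88 and 8.66 kb against 9.43 and 8.0 kb, and Sox2 20.9 and 20.7 kb against 19.4 and 18.9 kb. The Sox5 region was 1.31 and 0.86 kb against 0.361 and 1.5 kb, with opposite directions in the 2 lines. The 5 Tex14 members stood between −1.65 and −1.25 and were not called. SOX6 covered 1445, 1415 and 921 bp of the longest of them (chr11:87421850-87423782).

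At the edge of the rule, regions at Wwox, with 53 bp, and at Rpl38, with 69 bp, were among the members with the least OL SOX6 inside them. The nearest constant regions outside lay at Mxi1, 11 bp from an OL SOX6 peak, at Syn3 and Timp3, 491 bp, and at Epb41l2, 523 bp. The share of constant regions that were members ran from 5.79% on chromosome 3 to 11% on chromosome 10.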

How the data were processed

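Peak lists of 7 of the 9 ChIP-seq samples were used, and the 2 inputs were not analysed here. The build was mm10, and the submitters' processing notes name Bowtie2 2.3.2, Trim Galore 0.3.1, bedtools, Picard and deepTools. The caller of the peaks is not given in the sources used here. Every deposited list belongs to 1 library and has no header. Its score, its fold enrichment (a ratio over background), its −log10 p and its −log10 q are the authors' values per peak, and the SOX6 lists also give a summit. They were used only to describe, rank or shorten a list.

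Peaks on chromosomes 1 to 19 were merged where they shared 1 bp or more. H3K27ac-covered kb per constant region, scaled to equal covered length per list, was tested as log2 with limma 3.58.1 (R 4.3.3, trend, terms for state and cell line, 1 residual and 3.19 prior degrees of freedom) over all 14591 constant regions with Benjamini-Hochberg adjustment. A planned permutation test of median breadth in members relative to regions losing SOX6 is not given, since width bears on membership. The cell line is a block, since each line gave both of its states. Same-line deviations correlated across regions at 0.18, and no region differed by line in limma (0 calls). In simulated data for this comparison with 14591 regions, the call was made for 0 of 50 regions given a log2 change of 1, for 24%, 52% and 70% of those given 2, 3 and 4, and for 6 of 14391 given none.

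Gene positions and promoters (250 bases before to 50 after a start) came from RefSeq tables of GRCm38.p6. All genes of the lists were found. A region counted as having a start site if it held the start of a promoter entry. The status was not known for 128 members on chromosome 18 or at the end of a gene without an entry. No genome sequence was used, so words were searched in promoters only. Words for NRF1 and YY1 were also searched, after the data were seen, and are not reported here. Regions are named by the protein-coding gene they overlap or, within 50 kb, the nearest.

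Regions named are the 10 with the longest OL SOX6 coverage, the 8 with the highest OL fold, the 8 widest, up to 8 of each of 6 lists, the 5 largest calls in each direction, the 5 with the most OL peaks, the 5 most distant summits and those at 17 genes always given. Some items that this rule, the lists or the edge of the member rule would name are not reported here. Others are members of the lists or were chosen after their values were seen. The members and lists were chosen with earlier results of these data known. The alternatives were other overlap, merging and scaling rules, shortened lists, a pseudocount, a breadth minimum, other windows, a model without cell line and leaving out each list.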

Additional observations from a re-analysis of the deposited data

Results flagged for a closer look

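The X chromosome was outside the rule. There, 7 of 370 constant H3K27ac regions were touched by a peak in each of the 3 SOX6 lists. They stand out only as signal in data that the comparisons above do not use.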

How the results depend on the processing

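The number of members was 417 with the higher-scoring 50% of each SOX6 list, where 58.2% had a start site. With equal numbers of peaks the number of members was 350, and 27.4% of those had a start site. Under the other definitions of a member that number stayed within 1.5 times. Members called wider were 50 with each list centred on its median, 0 without scaling and 152 with a pseudocount of 1 kb. Members called narrower were 93 with the higher-scoring 50% of each list, 29 with a mean breadth of at least 1 kb, 0 when centred, 0 without scaling and 101 with the pseudocount. Over all regions tested those counts were 944 of 7643, 501 of 12398, and 6, 0 and 1736 of 14591. At an unadjusted p under 0.05 limma had 97 narrower members when centred and 237 wider and 192 narrower without scaling. Of all 14591 constant regions 3928 passed that threshold when centred and 4584 without scaling, in either direction. Without the replicate block, the cell line that pairs OPC with OL, 112 members were wider and 48 narrower, against 580 and 791 of all constant regions. Leaving out each list gave 0 to 180 wider and 0 to 231 narrower members, with no block and the lone list assumed to vary like the others. Without OPC of 129O1 the members' median log2 change was −0.39, against −0.49 for all constant regions, and without OPC of EpiSC5 −0.22 against −0.36. The 25 named calls kept their direction in all 265 alternatives with a value and their call in 168. OL peaks overlapped those of both OPC lists in 69.3% of members when summits had to lie within 100 bp, in 86.6% with the higher-scoring 50%, and in 90.2% to 93.2% with 1 OPC list left out, where the summit distance was 42 to 50 bp. With 50 kb each side 3237 genes held a member. With 100 bases each side of the summit the SOX word stood in 4.19% of windows, the E-box in 7.33%, the TCF word in 5.24%, the NFI word in 6.81%, the TEAD word in 3.66% and the GC box in 63.9%. The ETS word stood in 40.3%. The wider windows were longer and fewer, 191 against 361. The cause of the changes given here was not tested. Depth is unknown, so absence from a list cannot be told from a shallow library.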
